A study of Homo sapiens with 8 samples.

Results

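The 9 genes described here encode the enzymes that make, salvage or break down the deoxynucleotides used for DNA: RRM1, RRM2, RRM2B, TYMS, TK1, DUT, DTYMK, DCK and SAMHD1. They were chosen by gene symbol from a table of read counts for 16082 genes, in which all 9 were present. The cells were KYSE150, a long-established line of human esophageal squamous carcinoma. The 8 samples were 4 with HNRNPC knocked down by a short hairpin RNA (genotype ShHNRNPC in the labels, written shHNRNPC below) and 4 controls, with no other treatment in either group. The labels name neither the hairpin sequence, the number of hairpins, the control vector nor the time after transduction. Nothing in them says that the samples were separate cultures, so the p-values reflect no more than the scatter among the samples at hand, possibly technical in origin. HNRNPC encodes an abundant nuclear protein that binds uridine tracts of new transcripts and influences how they are spliced.

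Ribonucleotide reductase turns ribonucleoside diphosphates into deoxyribonucleoside diphosphates. It pairs a large catalytic subunit, RRM1, with a small radical-bearing subunit, either RRM2, which is made mainly in S phase, or RRM2B, which serves cells outside it. Thymidylate is made de novo by thymidylate synthase (TYMS) from dUMP, which dUTPase (DUT) supplies in part. It is also salvaged from thymidine by the cytosolic thymidine kinase TK1. Both routes meet at thymidylate kinase (DTYMK). Deoxycytidine kinase (DCK) salvages deoxycytidine and the purine deoxynucleosides, and SAMHD1 hydrolyses deoxynucleoside triphosphates. Several of these genes are transcribed most at the start of S phase, under E2F, NF-Y and the DREAM complex.

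Levels are given as CPM, the usual unit of read counts scaled to a common library size, here after TMM scaling. Library totals were 28323403 to 34913500 counts and 13855 to 14223 genes were detected per library. HNRNPC stood at 33.8, 32.9, 32.5 and 36.5 CPM in shHNRNPC samples 1 to 4 and at 601, 590, 571 and 587 CPM in control samples 1 to 4. The shHNRNPC mean was therefore 5.78% of the control mean (log2 fold change -4.12, SE 0.027; by edgeR's quasi-likelihood test with Benjamini-Hochberg adjustment, adjusted p = 5.72e-75). On the second principal component, with 4.51% of the variance against 80.2% on the first, shHNRNPC samples 1 and 4 lay at 14.5 and 6.13, shHNRNPC samples 2 and 3 at -8.98 and -12.1, and the controls between -2.25 and 2.10. Of 10 squamous epithelial markers 9 passed the filter on low counts, with 3 higher and 6 lower in shHNRNPC. KRT5, a basal keratin, averaged 1123 CPM in shHNRNPC and 565 CPM in control, and CDH1 and EPCAM were the others higher. The keratins KRT14 (log2 fold change -0.77) and KRT6A (-1.62) were lower, at under 10 CPM in both groups, as were TP63, a basal transcription factor, at 129 CPM in shHNRNPC and 176 CPM in control, DSG3, DSC3 and PERP. SOX2 was near 0 in both groups, at 0.0156 CPM in shHNRNPC and 0.0534 CPM in control. Leukocyte, endothelial and fibroblast markers summed to 6.92 to 8.55 CPM in shHNRNPC and 11.8 to 13.9 CPM in control over the 12 of 15 listed that were in the table, of which 5 passed the filter, with 1 higher, 2 lower and 2 not called. ACTA2, a smooth muscle actin, was the most abundant, at 4.8 CPM in shHNRNPC and 10 CPM in control, and VWF was also lower, at 0.765 and 1.7 CPM. LUM was higher, at 0.597 CPM in shHNRNPC and 0.197 CPM in control. COL1A2 and LYZ had no counts in shHNRNPC and only 0.0227 and 0.0153 CPM in control. DCN had 0.00888 CPM in shHNRNPC and no counts in control. The other 3 listed were not analysed here.

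All 9 enzyme genes passed the filter on low counts. The test called 8 of them at an adjusted p below 0.05: TK1, RRM2, DTYMK, SAMHD1, RRM1 and TYMS were higher in shHNRNPC, and DCK and RRM2B were lower. DUT was not called. Most genes were called in this comparison: 9275 of 12001 tested, or 77.3%, with 38.7% called higher and 38.6% called lower. The 8 called of 9 read against that background, in which a call is common. By direction, 6 of 9 enzymes were higher and 2 of 9 lower, and the difference from the background shares was not tested. The 4 shHNRNPC samples lay outside the range of the 4 control samples for 8 of the 9 enzymes, against 70.8% of all genes tested. The median log2 fold change of the 9 was 0.37, against -0.01 over all genes tested, and the median absolute change was 0.486 against 0.296. In RNA from a whole culture, more or fewer cells in a cycle phase and more or less transcript per cell cannot be told apart.

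**Figure D1:**
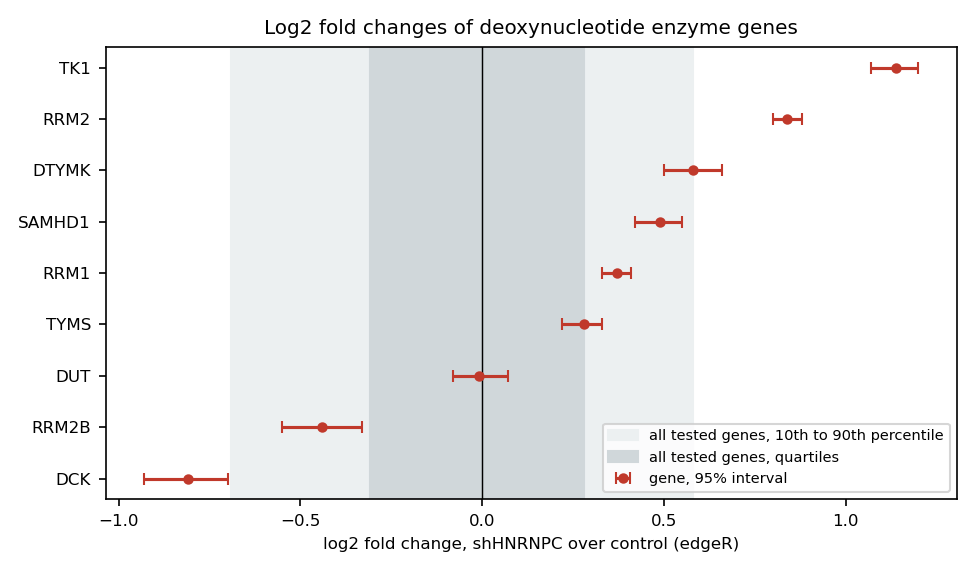
Log2 fold change of each enzyme gene, shHNRNPC over control (points, edgeR) with 95% intervals (bars), over shaded bands for the quartiles and the 10th to 90th percentiles of all 12001 tested genes. TK1 and RRM2 lie above the 90th percentile of 0.58, DCK lies below the 10th percentile of -0.69, and the interval of DUT spans 0.

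The changes covered a wide range of sizes. TK1 changed more than 93.8% of all tested genes did in absolute terms, RRM2 more than 87.9% and DCK more than 87.1%. DTYMK exceeded 77.2%, SAMHD1 70.3%, RRM2B 66.5% and RRM1 59.0%. TYMS, at 47.6%, was near the middle of all genes, and DUT changed more than only 1.28% of them.

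Promoter sequence is shown for 6 of the genes because their transcripts differed in how much they changed and their promoters differ in elements of cell cycle transcription. RefSeq (GRCh38.p14) gave windows of 250 bases before to 50 after the start for 8 of the 9 genes, 13 starts in all; RRM2B had no entry. The words searched on both strands were CCAAT, the box bound by NF-Y; TTTCCCGC, TTTCGCGC, TTTGCCGC and TTTGGCGC, forms of the E2F site; and TTTGAA and TTCGAA, forms of the CHR element of DREAM targets. Positions below 0 count bases before the start, and capitals mark the matches in the 130 bases before it, on the gene's own strand.
RRM2, chr2:10122609-10122738, plus strand: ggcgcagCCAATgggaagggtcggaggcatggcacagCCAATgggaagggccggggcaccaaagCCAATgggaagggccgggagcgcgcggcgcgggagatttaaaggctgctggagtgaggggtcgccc
TK1, chr17:78187053-78187182, minus strand: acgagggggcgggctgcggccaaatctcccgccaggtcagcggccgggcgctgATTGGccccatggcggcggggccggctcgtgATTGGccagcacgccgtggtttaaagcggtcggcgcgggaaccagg
DTYMK, chr2:241686816-241686945, minus strand: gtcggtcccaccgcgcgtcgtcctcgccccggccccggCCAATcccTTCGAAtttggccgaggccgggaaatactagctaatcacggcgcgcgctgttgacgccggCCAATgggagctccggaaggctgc
TYMS, chr18:657523-657652, plus strand: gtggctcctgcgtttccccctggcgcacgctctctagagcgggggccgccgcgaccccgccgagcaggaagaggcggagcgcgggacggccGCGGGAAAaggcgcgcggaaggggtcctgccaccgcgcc
DUT, chr15:48332067-48332196, plus strand: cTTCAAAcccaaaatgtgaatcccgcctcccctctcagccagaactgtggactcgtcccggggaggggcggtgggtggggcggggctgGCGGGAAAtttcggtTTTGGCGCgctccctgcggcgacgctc
DCK, chr4:70993519-70993648, plus strand: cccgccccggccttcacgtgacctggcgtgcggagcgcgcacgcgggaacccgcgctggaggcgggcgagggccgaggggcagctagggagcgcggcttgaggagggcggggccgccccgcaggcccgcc

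The RRM2 window shown above, for the start at 10122739, held 3 CCAAT words, at positions -123, -93 and -66, and the window of its other start, at 10122568, held 1, at position -249. Of 35116 RefSeq windows of the same length, 34.6% held a CCAAT word on either strand, 10.8% at least 2 and 3.26% at least 3. TK1 had 2, written ATTGG because they read as CCAAT on the opposite strand, at positions -77 and -46 from one of its starts, and none in the window of its other start. DTYMK had 2 CCAAT words and a TTCGAA between them, and SAMHD1 had 2 CCAAT words. RRM1 had 1 CCAAT word and 1 CHR word. TYMS and DCK had no CCAAT word, and DUT had none in the windows of any of its 4 starts. The E2F words were rarer, in 3.31% of windows, with 0.145% holding at least 2. TYMS held 1 upstream of its start, DCK 1 just inside its transcript and none before it, and DUT 2, in the window of 1 of its 4 starts. CHR words were in 16.4% of windows, among them the same DUT window, which held 2. DUT had 4 starts searched, more than TYMS or DCK, and its other windows held no E2F word. Word counts in these 8 genes were not tested against the changes in transcript. A match to these letters shows no binding.

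The transcripts of the 2 small subunits of ribonucleotide reductase changed in opposite directions, and that of the large subunit rose. RRM2, the S phase small subunit, stood at 422, 414, 412 and 431 CPM in shHNRNPC samples 1 to 4 and at 230, 233, 234 and 239 CPM in control samples 1 to 4. Every shHNRNPC sample was far above every control. The means were 420 ± 8.77 CPM in shHNRNPC and 234 ± 4.01 CPM in control (SD, n = 4 each), a fold of 1.79 with a 95% interval of 1.74 to 1.85 (log2 fold change 0.84, SE 0.021, edgeR adjusted p = 4.09e-44). RRM2 lies at chr2:10122568-10211010 (plus strand). In GENCODE release 29, 20.2% of RRM2 exon bases are shared with AC007240.1 on the same strand, which was not in the count table.

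RRM1, the catalytic subunit, stood at 293, 295, 295 and 287 CPM in shHNRNPC samples 1 to 4 and at 224, 226, 226 and 231 CPM in control samples 1 to 4. The groups did not overlap, and the replicates of each lay close to each other. The means of 293 ± 3.82 CPM in shHNRNPC and 227 ± 2.86 CPM in control gave a fold of 1.29 (95% interval 1.25 to 1.33; log2 fold change 0.37, edgeR adjusted p = 1.24e-24). RRM1 lies at chr11:4094685-4138932 (plus strand), and 1.51% of its exon bases overlap the antisense RRM1-AS1.

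RRM2B, the small subunit used outside S phase, lies at chr8:102204501-102238961 (minus strand) and shares no exon bases with another gene. It stood at 20.0, 21.1, 21.1 and 21.7 CPM in shHNRNPC samples 1 to 4 and at 27.9, 28.2, 26.1 and 31.5 CPM in control samples 1 to 4. All shHNRNPC samples were below the lowest control. The means were 21.0 ± 0.726 CPM in shHNRNPC and 28.5 ± 2.25 CPM in control (SD, n = 4 each), so that RRM2B fell to 73.7% of the control level (log2 fold change -0.44, 95% interval -0.55 to -0.33, edgeR adjusted p = 1.44e-10).

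The balance between the subunits therefore shifted within every library. RRM2 had 1.44, 1.4, 1.39 and 1.5 counts per RRM1 count in shHNRNPC samples 1 to 4 and 1.02, 1.03, 1.03 and 1.04 in control samples 1 to 4. The difference in log2 ratio was 0.48 (0.52 ± 0.0484 in shHNRNPC, 0.04 ± 0.0073 in control). The log2 ratio of RRM2 to RRM2B counts was 4.32 ± 0.0538 in shHNRNPC and 3.04 ± 0.098 in control, a difference of 1.28 or 2.43-fold. For each ratio all 4 shHNRNPC samples lay beyond all 4 controls. For RRM2 to RRM2B this followed from the opposite changes given above, each without overlap. Exact two-sided permutation tests gave p = 0.0286, the smallest that the 70 assignments of 4 and 4 samples allow, for each of the 5 ratios tested in all, and 0.0286 after Benjamini-Hochberg adjustment over the 5. Per kilobase of transcript, RRM2 made up 96.8, 96.6, 96.6 and 96.6% of small-subunit CPM in shHNRNPC samples 1 to 4 and 92.2, 92.2, 92.8 and 91.6% in control samples 1 to 4.

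**Figure D2:**
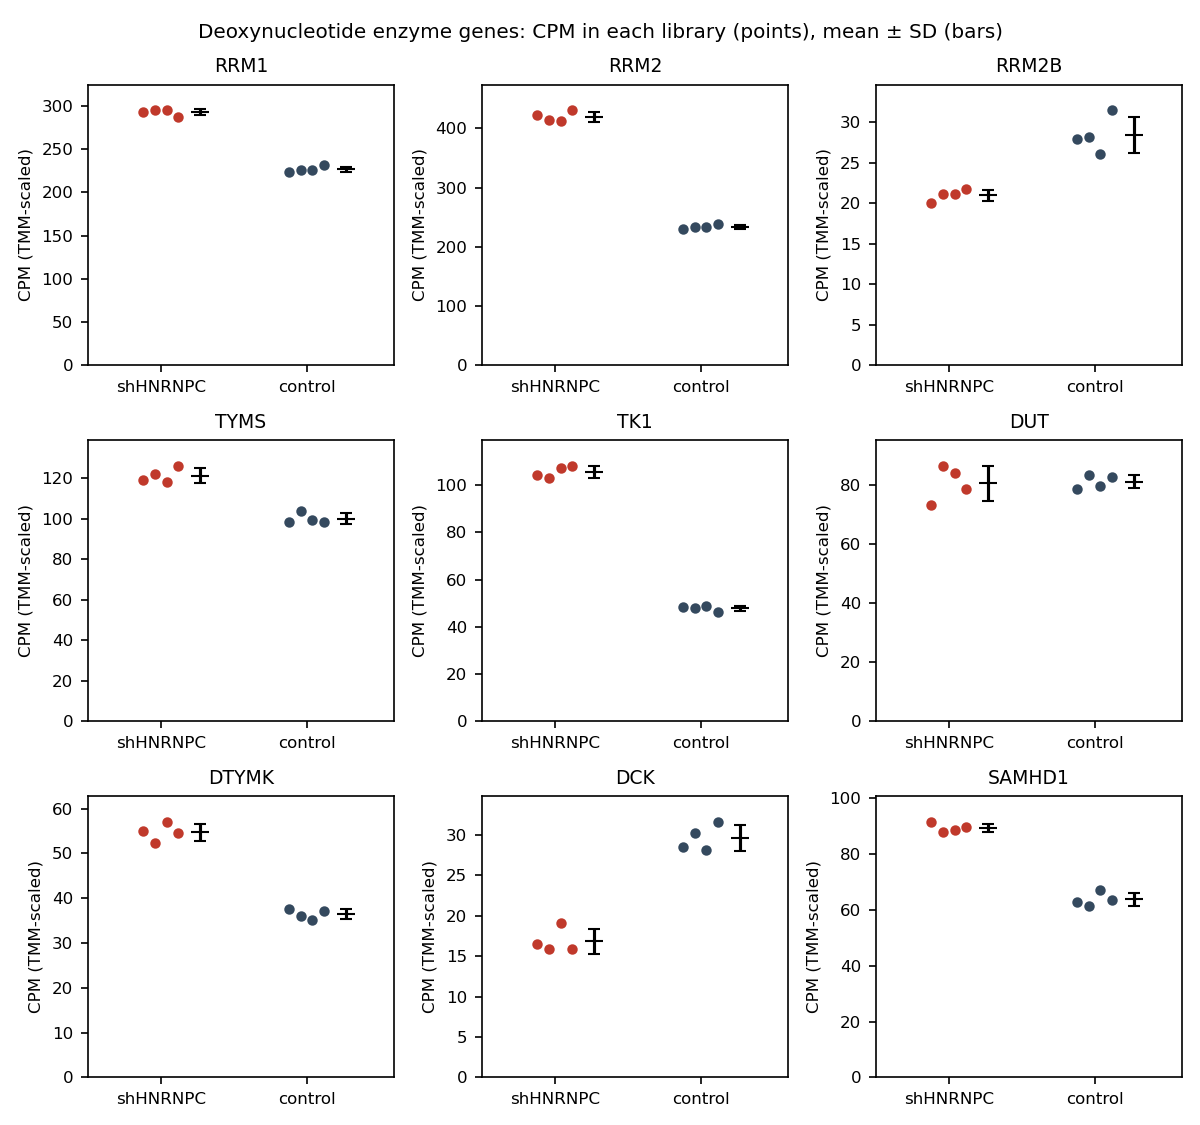
CPM of the 9 enzyme genes in each library (points; shHNRNPC left, control right) with the mean ± SD of 4 libraries (bars); the vertical axes start at 0 and differ between genes. The groups are separate for every gene except DUT, whose shHNRNPC samples run from 73.2 to 86.5 CPM and control samples from 78.7 to 83.3 CPM.

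Along the thymidylate route the 3 enzymes did not move together. DTYMK, which phosphorylates dTMP from both routes, stood at 55.0, 52.3, 57.0 and 54.5 CPM in shHNRNPC samples 1 to 4 and at 37.6, 36.1, 35.1 and 37.1 CPM in control samples 1 to 4. Its lowest shHNRNPC sample was well above its highest control. The means of 54.7 ± 1.91 CPM in shHNRNPC and 36.5 ± 1.11 CPM in control gave a fold of 1.5 (95% interval 1.41 to 1.59; log2 fold change 0.58, edgeR adjusted p = 2.64e-20). DTYMK lies at chr2:241675747-241686815 (minus strand) and no other gene overlaps its exons.

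TYMS, which methylates dUMP, rose less. It stood at 119, 122, 118 and 126 CPM in shHNRNPC samples 1 to 4 and at 98.3, 104, 99.5 and 98.2 CPM in control samples 1 to 4. The groups were separate, with means of 121 ± 3.75 CPM in shHNRNPC and 99.9 ± 2.6 CPM in control, a fold of 1.21 (95% interval 1.17 to 1.26; log2 fold change 0.28, edgeR adjusted p = 9.82e-14). TYMS lies at chr18:657653-673578 (plus strand). Of its exon bases 46.6% overlap genes on the opposite strand, 39.1% overlapping ENOSF1 and 7.41% TYMSOS. The strand setting of the counting is not given in the sources used here, so reads from these genes may not have been separable. ENOSF1 changed in the other direction, at 55.3 ± 1.35 CPM in shHNRNPC and 67.0 ± 0.649 CPM in control (log2 fold change -0.28, edgeR adjusted p = 1.52e-10). The part of shared reads in either value was not tested.

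DUT, which removes dUTP and supplies dUMP, showed no detectable difference. It stood at 73.2, 86.5, 84.0 and 78.7 CPM in shHNRNPC samples 1 to 4 and at 78.7, 83.3, 79.8 and 82.7 CPM in control samples 1 to 4. The shHNRNPC samples enclosed the whole control range, and samples 1 and 4, on one side of the controls on the second principal component, were lower than samples 2 and 3, on the other side. Library totals split the same way, at 28323403 and 30146080 counts in shHNRNPC samples 1 and 4 and 34913500 and 33449842 in samples 2 and 3. The part of depth in the DUT values was not tested. The means were 80.6 ± 5.88 CPM in shHNRNPC and 81.1 ± 2.23 CPM in control, a fold of 0.994 (edgeR adjusted p = 0.885). The 95% interval of the fold, 0.945 to 1.05, leaves out changes as large as those of the other 8 enzymes. In a fit added after seeing the data, without shHNRNPC samples 1 and 4, the log2 fold change was 0.08 (edgeR adjusted p = 0.0688). In another, without samples 2 and 3, it was -0.09 (edgeR adjusted p = 0.0361). Samples 1 and 4 held the lowest shHNRNPC values of DUT, so the turn of sign followed from which libraries were left out. The call without samples 2 and 3 rests on that choice and is no separate result about DUT. DUT lies at chr15:48331095-48343373 (plus strand), where an antisense gene, AC023355.1, overlaps 14.5% of DUT exon bases and was not in the count table.

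The salvage kinases moved in opposite directions. TK1, the cytosolic thymidine kinase, stood at 104, 103, 107 and 108 CPM in shHNRNPC samples 1 to 4 and at 48.4, 48.1, 48.6 and 46.3 CPM in control samples 1 to 4. The samples of each group were tightly grouped and widely apart from the other group. The means of 105 ± 2.53 CPM in shHNRNPC and 47.9 ± 1.04 CPM in control gave a fold of 2.2 (95% interval 2.1 to 2.3; log2 fold change 1.14, SE 0.033, edgeR adjusted p = 1.91e-40), the largest among the 9. TK1 lies at chr17:78174079-78187204 (minus strand) with no overlapping exons.

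DCK, the deoxycytidine kinase, stood at 16.5, 15.9, 19.1 and 15.9 CPM in shHNRNPC samples 1 to 4 and at 28.5, 30.3, 28.2 and 31.6 CPM in control samples 1 to 4. Even its highest shHNRNPC sample was well below its lowest control. The means were 16.8 ± 1.51 CPM in shHNRNPC and 29.7 ± 1.59 CPM in control, so DCK fell to 56.8% of the control level (log2 fold change -0.81, 95% interval -0.93 to -0.70, edgeR adjusted p = 6.36e-20). It lies at chr4:70993649-71030914 (plus strand). Its neighbour MOB1B, which shares 6.17% of DCK exon bases on the same strand, had a log2 fold change of -0.05 (edgeR adjusted p = 0.257).

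SAMHD1, which degrades deoxynucleoside triphosphates, rose along with most of the synthetic enzymes. It stood at 91.4, 87.8, 88.6 and 89.5 CPM in shHNRNPC samples 1 to 4 and at 62.9, 61.5, 67.1 and 63.6 CPM in control samples 1 to 4, with no overlap. The means of 89.3 ± 1.53 CPM in shHNRNPC and 63.8 ± 2.38 CPM in control gave a fold of 1.4 (95% interval 1.34 to 1.46; log2 fold change 0.49, edgeR adjusted p = 2.31e-21). SAMHD1 lies at chr20:36889773-36951708 (minus strand). The gene TLDC2, which overlaps 10.3% of its exon bases on the opposite strand, had at most 0.0576 CPM in any library.

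Ratios within a library, which do not depend on how libraries are scaled, came from the same counts and so restate these shifts rather than add to them. For TK1 to DCK, the opposite changes of the genes, each without overlap, fixed the separation of the groups in advance. The log2 ratio of TK1 to DCK counts was 2.66, 2.69, 2.48 and 2.76 in shHNRNPC samples 1 to 4 and 0.76, 0.67, 0.78 and 0.55 in control samples 1 to 4. The ratio of thymidine kinase to deoxycytidine kinase counts was thus 3.88-fold higher in shHNRNPC (difference 1.96). Between the de novo and the salvage source of thymidylate, the log2 ratio of TYMS to TK1 was 0.20 ± 0.0429 in shHNRNPC and 1.06 ± 0.0402 in control (difference -0.86). For synthesis against hydrolysis, the log2 ratio of RRM2 to SAMHD1 was 2.23 ± 0.0266 in shHNRNPC and 1.88 ± 0.0534 in control (difference 0.36, or 1.28-fold). In these 3 ratios too, the 4 shHNRNPC samples lay beyond all controls, each with the exact two-sided permutation p of 0.0286.

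**Figure D3:**
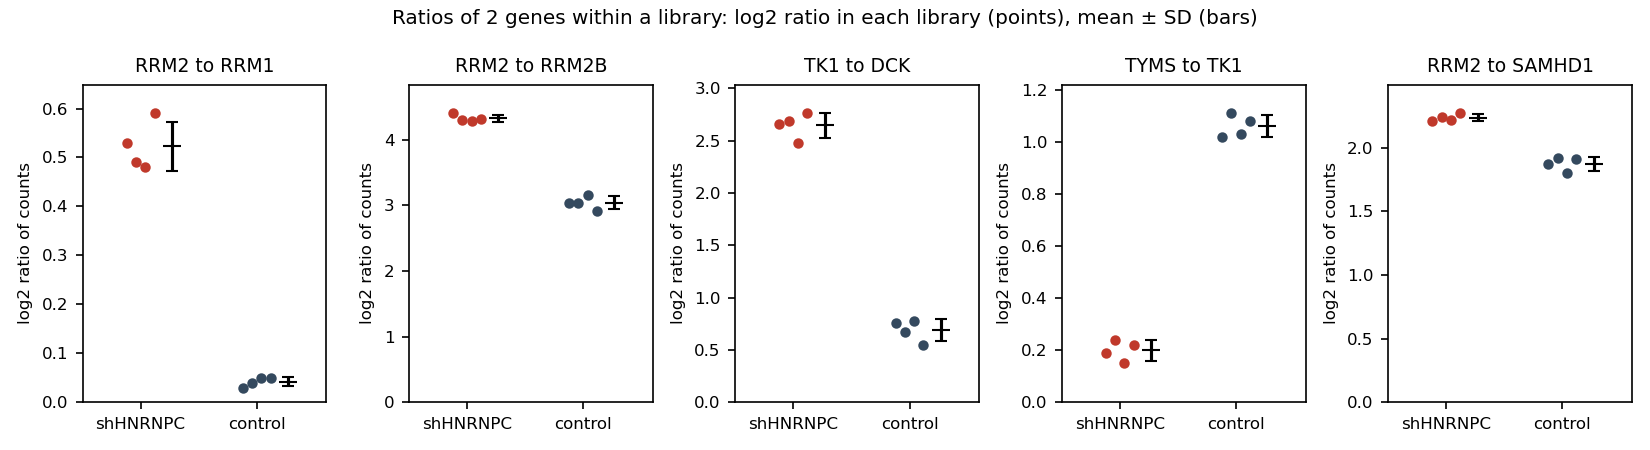
Log2 ratio of counts of 2 enzyme genes in each library (points; shHNRNPC left, control right) with the mean ± SD of 4 libraries (bars); the vertical axes start at 0 and differ between panels. The groups are separate in all 5 ratios, with TYMS to TK1 the one that is lower in shHNRNPC, at 0.20 against 1.06.

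Levels between the genes were compared as CPM per kilobase of each gene's principal transcript in GENCODE release 29. In shHNRNPC the order was RRM2 at 122 ± 2.56, RRM1 at 95.2 ± 1.24, TYMS at 72.9 ± 2.26, TK1 at 64.7 ± 1.56 and DTYMK at 44.4 ± 1.55 CPM per kilobase. DUT at 37.5 ± 2.74, SAMHD1 at 16.9 ± 0.289, DCK at 6.2 ± 0.556 and RRM2B at 4.25 ± 0.147 CPM per kilobase followed. No neighbours in that order had overlapping sample ranges. In control RRM1 came first at 73.8 ± 0.93, then RRM2 at 68.2 ± 1.17 and TYMS at 60.1 ± 1.56 CPM per kilobase. RRM2 has a shorter principal transcript of 3271 bases beside the one of 3431. With it RRM2 stood at 128 ± 2.68 CPM per kilobase in shHNRNPC and 71.5 ± 1.23 in control. The order of the means was the same, but the control ranges of RRM1 and RRM2 then overlapped. Whether RRM1 came first or shared its place with RRM2 in control thus depended on the transcript length used. TK1, which followed TYMS in shHNRNPC, shared its place in control, at 29.4 ± 0.639, with DTYMK at 29.6 ± 0.897 CPM per kilobase, as their ranges overlapped. SAMHD1 at 12 ± 0.449 and DCK at 10.9 ± 0.587 also overlapped in control. RRM2B was lowest in both groups. The 9 genes together took 0.119 to 0.12% of all counts in shHNRNPC and 0.0838 to 0.0867% in control.

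**Figure D4:**
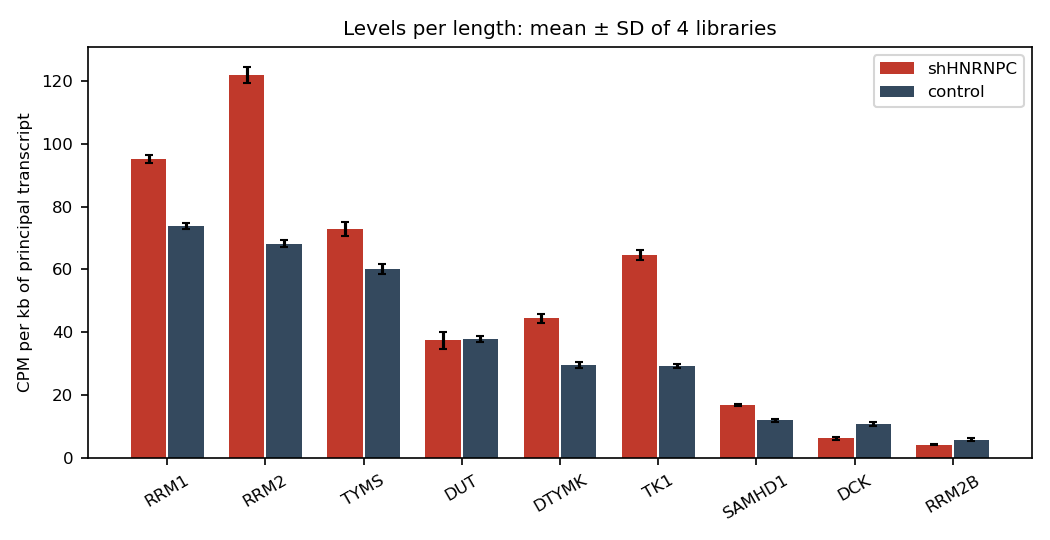
CPM per kilobase of principal transcript for the 9 enzyme genes (bars, mean of 4 libraries; error bars, SD; shHNRNPC left of control). RRM2 exceeds RRM1 in shHNRNPC (122 against 95.2) and TK1 exceeds DTYMK and DUT there (64.7 against 44.4 and 37.5).

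Among 12 regulators and reductants of the reductase, 11 were tested: 8 were higher, 2 were lower and 1 was not called, with a median log2 fold change of 0.26. This count and those of the lists below read against 38.7% of all tested genes called higher and 38.6% called lower. The lists were chosen with earlier results of these data known, and none was tested against those shares. CCNF, the cyclin F that marks RRM2 for degradation in G2, averaged 117 ± 1.34 CPM in shHNRNPC and 40.7 ± 1.08 CPM in control (log2 fold change 1.52), against 1.14 for TK1. WEE1, which restrains CDK1 and CDK2, averaged 94.2 ± 2.25 CPM in shHNRNPC and 33.5 ± 2.95 CPM in control (1.49). FZR1, an activator of the anaphase-promoting complex, which degrades TK1 and RRM2 after mitosis, rose by 0.54 on the log2 scale. TXNRD1, which keeps the thioredoxin that reduces RRM1 in its active state, averaged 706 ± 15.8 CPM in shHNRNPC and 504 ± 14.3 CPM in control (0.49).

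Of 11 other genes of nucleoside salvage and transport 10 were tested, with 5 higher, 3 lower and 2 not called (median 0.16). SLC29A1 and SLC29A2, the equilibrative nucleoside transporters, rose by 0.64 and 0.51 on the log2 scale. SLC29A1 averaged 54.1 ± 3.68 CPM in shHNRNPC and 34.8 ± 0.374 CPM in control. TK2, the mitochondrial thymidine kinase, went the other way from TK1, at 28.9 ± 1.54 CPM in shHNRNPC and 41.8 ± 2.1 CPM in control (-0.53), with 25% of its exon sequence shared with another gene. APRT, the adenine salvage enzyme, rose by 0.60. DGUOK, the mitochondrial deoxyguanosine kinase, had a log2 fold change of -0.14 (edgeR adjusted p = 1.07e-04) and was singled out after its value was seen.

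The kinases that carry mono- and diphosphates to triphosphates were mixed, with 8 higher, 3 lower and 2 not called of 13 tested (median 0.12). NME3 and NME6, both of the nucleoside diphosphate kinase family, had log2 fold changes of 0.68 and -0.75. NME6 averaged 21.8 ± 1.56 CPM in shHNRNPC and 36.8 ± 2.44 CPM in control. The mitochondrial adenylate kinase AK4 rose by 0.51.

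The deaminases, nucleotidases and pool-cleansing enzymes, which break down nucleotides and nucleosides or remove damaged ones, had 3 genes higher, 11 lower and 5 not called of 19 tested (median -0.16). The difference from the background shares of 38.7% higher and 38.6% lower over all genes was not tested. UPP1, uridine phosphorylase, averaged 110 ± 1.68 CPM in shHNRNPC and 219 ± 5.52 CPM in control (log2 fold change -1.0). NT5M, the mitochondrial deoxynucleotidase, averaged 5.52 ± 0.571 CPM in shHNRNPC and 10.4 ± 0.843 CPM in control (-0.91). NUDT18, a hydrolase of oxidised nucleotides, and NT5C2, a cytosolic purine nucleotidase, had log2 fold changes of -0.81 and -0.79, and 36.7% of NT5C2 exon bases overlap another gene. SAMHD1 thus stood on the higher side while 11 of these 19 catabolic or cleansing genes stood on the lower.

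The folate cycle, which supplies TYMS with its methyl donor, had 5 genes higher, 4 lower and 3 not called of 12 tested. Its median of 0.02 lay between -0.01 and 0.04 over the alternative settings, so it has no stable sign. The cytosolic serine hydroxymethyltransferase SHMT1 averaged 92.5 ± 1.95 CPM in shHNRNPC and 66.6 ± 1.93 CPM in control (log2 fold change 0.47). The mitochondrial enzymes MTHFD1L and MTHFD2 fell, by 0.64 and 0.60 on the log2 scale. MTHFD1L averaged 111 ± 2.64 CPM in shHNRNPC and 173 ± 2.07 CPM in control, and 33.2% of MTHFD2 exon bases overlap another gene.

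De novo ribonucleotide synthesis, the source of the reductase's substrates, had 6 genes higher, 11 lower and 1 not called of 18 tested (median -0.18). ATIC, which completes inosine monophosphate, averaged 124 ± 3.39 CPM in shHNRNPC and 208 ± 5.11 CPM in control (log2 fold change -0.74). GART, earlier in the same pathway, fell by 0.45, and ADSS1, an adenylosuccinate synthase, fell by 0.62 at a low level. PRPS1, which makes the activated ribose for both pathways, rose by 0.45.

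**Figure D5:**
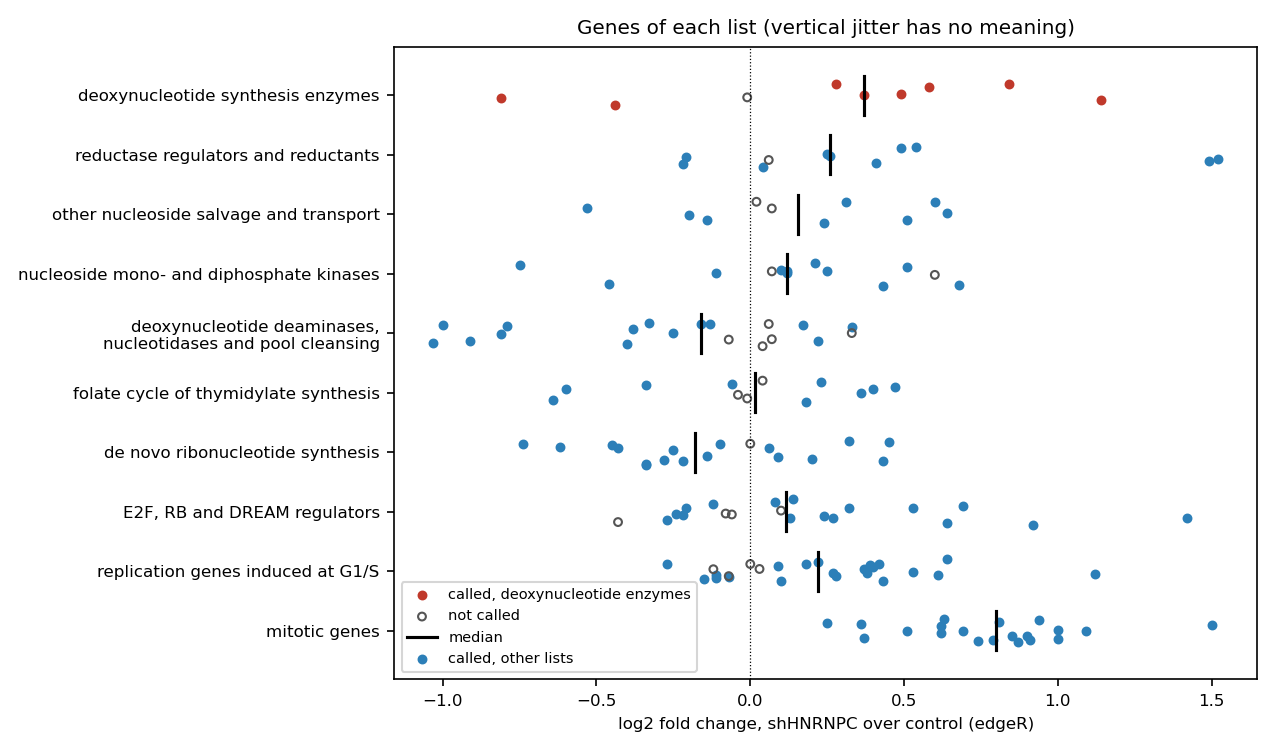
Log2 fold change of each tested gene (points; filled where called, open where not), shHNRNPC over control, for the 9 deoxynucleotide enzymes and each list of related genes (vertical lines, medians). The mitotic genes all lie to the right of 0 with a median of 0.80, while de novo ribonucleotide synthesis and the catabolic list have medians of -0.18 and -0.16.

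Cell cycle genes moved as well, against 38.7% of all tested genes called higher and 38.6% called lower. The differences of these lists from those shares were not tested. All 20 mitotic genes listed were higher (median 0.80): BIRC5, the survivin of the chromosomal passenger complex, averaged 135 ± 2.94 CPM in shHNRNPC and 47.7 ± 1.94 CPM in control, and the mitotic kinase AURKA 257 ± 4.77 and 121 ± 1.05 CPM. CENPF and MKI67 both had log2 fold changes of 1.00. Of 25 replication genes induced at G1/S, the class whose timing TK1 and RRM2 share, 16 were higher, 5 lower and 4 not called (median 0.22). MCM6, a subunit of the replicative helicase, averaged 128 ± 0.816 CPM in shHNRNPC and 58.9 ± 3.28 CPM in control (1.12). CCNE2, GINS2 and CDC6 rose by 0.64, 0.61 and 0.53, and 37.1% of CCNE2 exon bases overlap another gene. Among 20 E2F, RB and DREAM regulators 11 were higher, 5 lower and 4 not called (median 0.11). MYBL2, the B-MYB partner of the MuvB core, averaged 270 ± 7.31 CPM in shHNRNPC and 101 ± 3.68 CPM in control (1.42). E2F2, E2F8 and FOXM1 rose by 0.92, 0.69 and 0.64, whereas E2F1, singled out after its value was seen, had a log2 fold change of -0.06 (edgeR adjusted p = 0.195). The part of a changed cycle distribution in the enzyme values was not tested.

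For each enzyme the tested genes most like it over the 8 samples were taken by the root mean square difference of centred log2 CPM among 10400 genes with at least 5 CPM, a description of likeness with no test. Nearest to TK1 were FAM102B (0.0238), SPAG5 (0.0239) and SEMA6B (0.0329), and nearest to RRM2 were RALB (0.019), WWC2 (0.0211) and TXNDC11 (0.0227). RRM1 had the closest match of all, ASPH at 0.00916, followed by VOPP1 and LGALS8 at 0.0145 and 0.0148. DTYMK was nearest to SMARCC1 (0.0222) and GINS2 (0.0258), the second of them a gene of the replication list, and SAMHD1 to RBM38 (0.0224) and NPTN (0.0264). TYMS was nearest to JADE1 (0.0154), DUT to PDCL (0.0274), RRM2B to COP1 (0.0405) and DCK to TCEA1 (0.0477). With 80.2% of the variance on the axis between the groups, likeness over these samples mostly records a difference of the same size and sign.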

How the data were processed

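The authors deposited unnormalised read counts for each gene in each sample. Per the labels' protocols and the series design text, poly(A) RNA libraries were sequenced as paired reads and trimmed with fastp, and the submitters' processing notes name the build hg38. Which aligner, counter, annotation and strand setting were used is not given in the sources used here. The whole table was fitted with edgeR 4.0.16 in R 4.3.3 (filterByExpr with minimum count 10 and minimum total 15, TMM factors, robust quasi-likelihood F test on the group term), with Benjamini-Hochberg adjustment over the 12001 genes tested, a threshold of 0.05 and DESeq2 1.42.0 as an alternative. Depth was 28323403 to 34913500 counts per sample, and the common biological coefficient of variation was 3.02%. Ratios used counts plus 0.5 and exact permutation tests (Python 3.11.15, numpy 2.4.6).

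The genes and lists were chosen with earlier results of these data known. From each list the text names up to 4 genes past the threshold with the largest absolute change and a higher group averaging at least 1 CPM. Some genes that this rule takes are not reported here. The text also names genes whose exons overlap an enzyme gene and, for likeness, up to 3 nearest genes per enzyme. Positions and promoters are from RefSeq GRCh38.p14, and exons and lengths from GENCODE release 29. A BLAST 2.17.0 search of each principal transcript found no match of at least 95% identity over 150 bases outside the overlapping genes. Replicates were not duplicates: pairs of one group differed with a chi-square per degree of freedom of 2.66 to 3.70, pairs across groups with 109 to 124. Tested on simulated data for 11968 genes, 4 against 4, edgeR called 45 of 50 genes changed 1.25-fold, 49 of 50 changed 1.5-fold, 50 of 50 changed 2-fold and 9 of 11768 unchanged genes. Every simulated gene had the common dispersion and few were changed, whereas most tested genes were called in the data. These rates may therefore not hold for the data.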

Additional observations from a re-analysis of the deposited data

How the results depend on the processing

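Under 17 alternatives (each sample left out, the replicate block, DESeq2, 3 other scalings, 2 other filters, and fits without shHNRNPC samples 1 and 4 and without 2 and 3, both added after seeing the data) the same 8 enzymes were called, in the same directions. DUT was called in 1 of them, with a log2 fold change of -0.09 (adjusted p = 0.0361), without shHNRNPC samples 2 and 3. Calls over all genes were 8783 to 9593, and 9048 to 9151 with 1 sample left out. Log2 fold changes stayed at 1.11 to 1.15 for TK1, 0.82 to 0.87 for RRM2, 0.56 to 0.61 for DTYMK, 0.46 to 0.51 for SAMHD1, 0.34 to 0.38 for RRM1, 0.25 to 0.30 for TYMS, -0.48 to -0.39 for RRM2B and -0.88 to -0.76 for DCK, and at -0.09 to 0.08 for DUT (adjusted p 0.0361 to 0.93).

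Replicate numbers showed no pairing of the samples: same-numbered samples deviated with correlations of -0.0552 to 0.017. Such correlations cannot show whether same-numbered samples were handled together. The edgeR fit with the replicate block called 9219 genes, 4605 higher and 4614 lower. For the log2 ratios, an exact sign-flip permutation test over the 4 same-numbered pairs (replicate block) kept the differences of 0.48 for RRM2 to RRM1, 1.28 for RRM2 to RRM2B, 1.96 for TK1 to DCK, -0.86 for TYMS to TK1 and 0.36 for RRM2 to SAMHD1, each with p = 0.125, the smallest that 4 pairs allow. Without shHNRNPC samples 1 and 4 the differences were 0.44, 1.25, 1.89, -0.87 and 0.35 in the same order, and without samples 2 and 3 they were 0.51, 1.32, 2.02, -0.85 and 0.36, each with an exact permutation p = 0.0667, the smallest that 2 against 4 allow. With 1 sample left out they were 0.45 to 0.49, 1.24 to 1.32, 1.91 to 2.01, -0.87 to -0.84 and 0.33 to 0.37. Other scalings moved the median of all genes by at most 0.03 on the log2 scale. DCK and RRM2B, the lowest genes per length, carry the widest intervals. Protein, enzyme activity and nucleotide pools were not measured.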

Other observations

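The deposited annotation column assigns 8 of the 9 enzymes to pyrimidine metabolism, with SAMHD1 the exception. Of the other 44 genes it places there, 35 were tested, and 12 were higher in shHNRNPC, 14 were lower and 9 were not called (median log2 fold change -0.00). This list was chosen after the data were seen.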
